A study of Anethum foeniculum with 6 samples.

Results

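The 200 most abundant genes of fennel leaves were the 200 gene identifiers with the highest mean TPM, 200 of 27955 genes listed. TPM is a relative level of transcripts. Estimated reads are divided by contig length, less an allowance for fragment length, and scaled so that each library has the same total. The members were chosen by the deposited TPM, summed over the contigs of each gene and averaged over 6 libraries, so their high level is not a finding. The leaves came from wild-type fennel (Foeniculum vulgare Mill.) grown in hydroponics, with 3 libraries at 800 ppm CO2 and 3 at 400 ppm CO2, all at 5 weeks and labelled as biological replicates. The CO2 was supplied to each greenhouse, so CO2 and greenhouse cannot be told apart. Libraries held 13118850 to 19841914 estimated reads, and each member passed the filter on low counts. Genes here are groups of contigs that Trinity joined, and contigs are transcripts assembled from the merged reads.

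Leaf mRNA is typically dominated by few genes. In most land plants the messages for the small subunit of Rubisco, the enzyme that fixes CO2, for the chlorophyll-binding proteins of the light-harvesting antennae and for other photosynthesis proteins are among the most plentiful. The tables give assembly identifiers that are not paired with gene names, so whether the members are such genes, and whether leaf markers stand among them, was not analysed here. Members are therefore given by their rank in mean TPM, where rank 1 is the most abundant, and by identifier for the strongest changes only.

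The members took a larger share of all transcripts at 800 ppm. They held 37.3%, 42.2% and 41.0% of total TPM in the 800 ppm libraries (replicates 1 to 3) and 31.0%, 34.3% and 31.2% in the 400 ppm libraries. Each 800 ppm library lay above each 400 ppm library. The mean share was 40.1% ± 2.56 at 800 ppm and 32.1% ± 1.84 at 400 ppm (SD, n = 3 each), a difference of 8.01 percentage points. As a share of estimated reads, which does not correct for length, the members held 31.0% ± 1.54 at 800 ppm and 23.0% ± 1.01 at 400 ppm (SD, n = 3 each). No test was made of these sums, since the members were selected on TPM. With members taken from the 800 ppm libraries alone the difference was 10.7 points, and with members taken from the 400 ppm libraries alone it was 5.18 points.

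**Figure D1:**
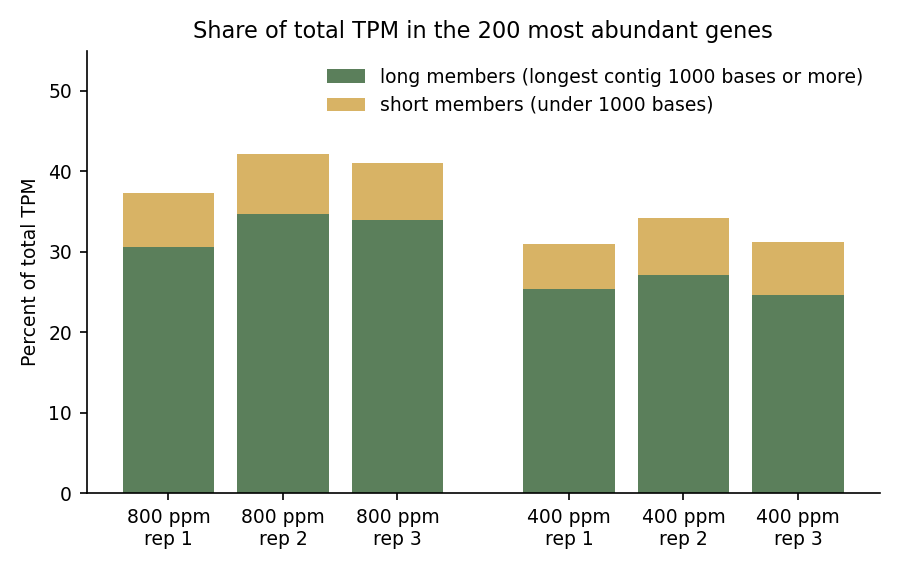
Percent of total TPM (vertical axis) in the long and short members of each of the 6 libraries, with the 800 ppm libraries left of the 400 ppm libraries. The full bars reach 37.3% to 42.2% at 800 ppm and 31.0% to 34.3% at 400 ppm. Most of the difference lies in the long members, classed by their longest contig.

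The share that the other genes lost lay below rank 1000. The 26955 genes below rank 1000 held 40.2% ± 1.66 of TPM at 800 ppm and 48.5% ± 1.48 at 400 ppm (SD, n = 3 each), without overlap. The 200 genes next in abundance below the members held 7.50% ± 0.44 at 800 ppm and 7.26% ± 0.20 at 400 ppm (SD, n = 3 each), and the libraries overlapped. Because the total TPM is fixed, a gain by some genes lowers the TPM of others. The number of genes that together made up 50% of TPM was 528, 396 and 413 in the 800 ppm libraries and 923, 736 and 878 in the 400 ppm libraries. The pool of transcripts was thus spread over fewer genes in each 800 ppm library than in any 400 ppm library.

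The most abundant gene was not the same at both CO2 concentrations. The rank 2 gene, with 3 contigs of up to 1413 bases, led each 800 ppm library at 30756, 29241 and 34307 TPM, against 13893, 11806 and 10714 TPM in the 400 ppm libraries. The groups lay far apart. Its fitted log2 fold change, by edgeR, was 1.69 with a standard error of 0.17 and an adjusted p of 0.00229. The rank 1 gene, with 5 contigs of up to 1149 bases, led each 400 ppm library. It stood at 18395, 24182 and 21432 TPM at 800 ppm and at 25976, 33643 and 21092 TPM at 400 ppm, and the groups overlapped. Fitted by edgeR, its log2 fold change was -0.02, with a standard error of 0.24 and an adjusted p of 0.958. Fitted fold changes use counts scaled by TMM, which sets the bulk of genes near no change. On the TPM scale the median log2 ratio of 800 over 400 ppm was -0.36 over the 20950 genes with a mean of at least 1 TPM, so TPM ratios lie below fitted ones.

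Most of the other leading genes also stood higher at 800 ppm. The rank 7 gene, whose main contig is 552 bases, had 13028, 12336 and 15975 TPM at 800 ppm and 4966, 3839 and 4246 TPM at 400 ppm. This was the largest fitted rise among the 10, 1.94 on the log2 scale with a standard error of 0.17 and an adjusted p of 0.00189 by edgeR. The genes at ranks 6, 8 and 9 also rose, with log2 fold changes of 1.5, 1.0 and 1.29, and passed the test whichever of the 6 libraries was left out. The rank 3 gene rose by 0.79 on the log2 scale with an adjusted p of 0.0214 by edgeR. It lay near the threshold and was called in 2 of the 6 fits with a library left out. The adjusted p became 0.0567 or 0.0670 once replicate 2 or 3 at 800 ppm was dropped, and 0.0640 or 0.0784 once replicate 1 or 3 at 400 ppm was dropped. Its log2 fold change stayed between 0.69 and 0.90 in these 6 fits, which have fewer samples. The genes at ranks 4, 5 and 10 overlapped between the groups and did not pass the test. For the rank 5 gene the low 800 ppm library was replicate 1, at 8380 TPM, against 15188 and 18200 TPM in the other two, and once it was dropped the adjusted p by edgeR was 0.0180, while DESeq2 on all libraries gave 0.0288. In all, 6 of the 10 rose and 0 fell at an FDR under 0.05, where 14.8% of all genes tested rose and 9.96% fell. The share that rose was likewise 60% at ranks 11 to 50 and at ranks 51 to 100.

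**Figure D2:**
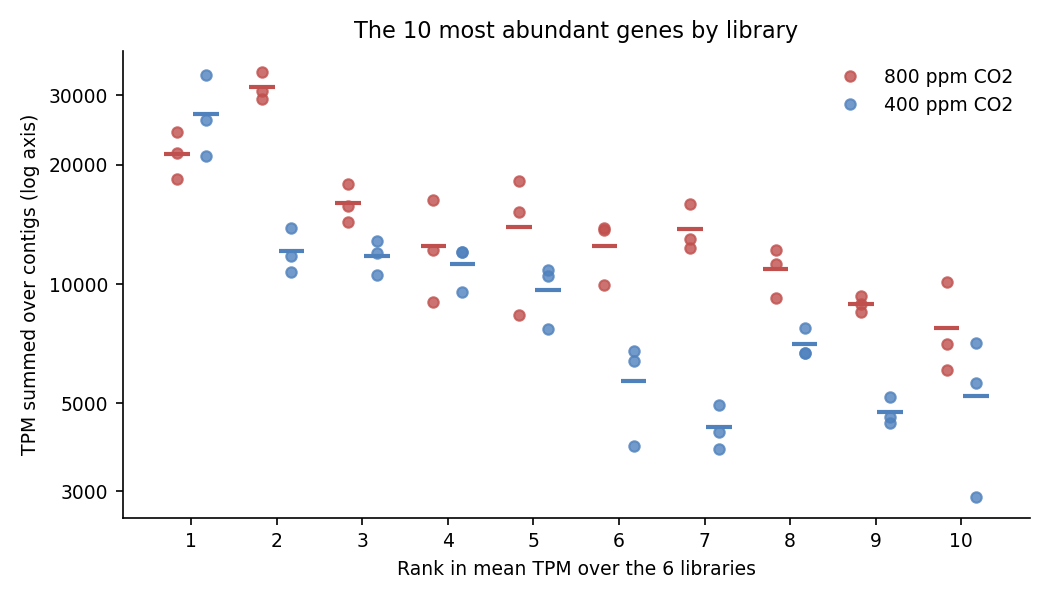
TPM summed over contigs (log axis) of the 10 most abundant genes, by rank in mean TPM, where points are libraries, bars are group means, and 800 ppm stands left of 400 ppm. The rank 2 gene averages 31435 TPM at 800 ppm and 12138 TPM at 400 ppm, while the points of ranks 1, 4, 5 and 10 overlap.

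The gain in share was spread over many members, with a few large steps among them. Of the members, 129 had a higher mean TPM at 800 ppm and 71 a lower one, and their rises summed to 14.1 and their falls to -6.14 percentage points. The 10 members that added most gave 6.12 points, and the rank 2 gene alone gave 1.93 points. Ranks 7 and 6 followed with 0.94 and 0.68 points. These 10 were all among the first 50 ranks, all long by their longest contig, and 9 of them rose in the test. At ranks 2, 5, 7 and 8, however, the most abundant contig was of 977, 828, 552 and 736 bases. In the others of the 10 it was over 1000 bases. Because the 10 were picked by the difference between the groups, their ranks and calls are a description only. Taking away the 10 genes picked for the largest gain must narrow the difference, so the shares of the other 190 members are a description only. They held 27.8% ± 1.73 of TPM at 800 ppm and 25.9% ± 1.94 at 400 ppm with overlap, and 23.7% ± 1.05 of estimated reads at 800 ppm and 19.5% ± 0.99 at 400 ppm without overlap (SD, n = 3 each). The genes that lost most were ranks 1, 12 and 13, with -0.56, -0.46 and -0.45 points.

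**Figure D3:**
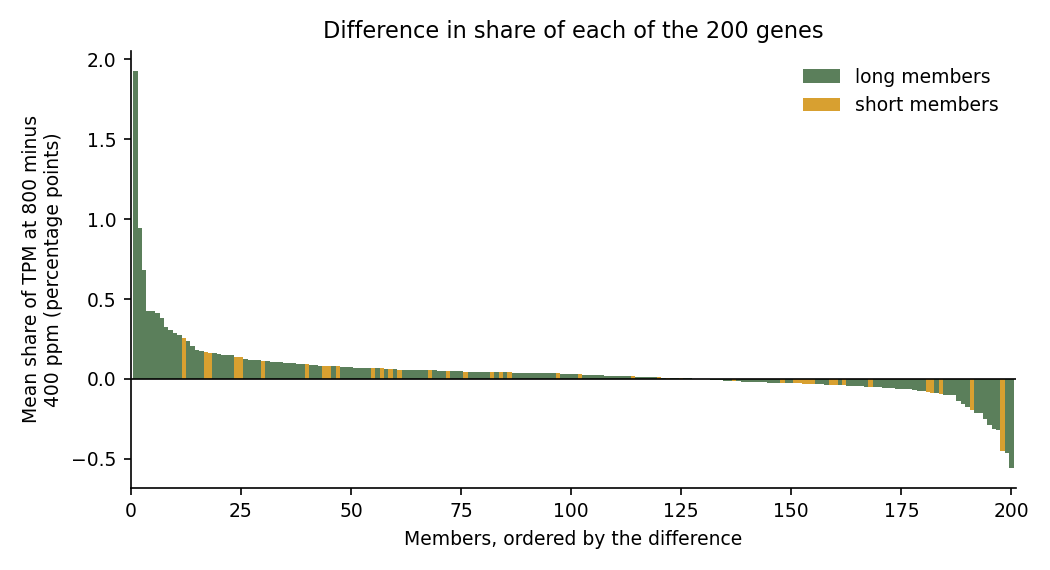
Difference in mean share of TPM, 800 minus 400 ppm in percentage points, for each of the 200 members in falling order, coloured by length class. The bars run between 1.93 points for the rank 2 gene and -0.56 points for the rank 1 gene, and 14 exceed 0.3 points in either direction.

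In the test across all genes, 107 of the 200 members rose and 29 fell at 800 ppm (edgeR's quasi-likelihood test on gene sums, FDR under 0.05). Over all 20328 genes tested, 14.8% rose and 9.96% fell. The share of members that rose was 53.5%, and the share that fell was 14.5%. Among the 200 genes next in abundance 81 rose and 19 fell, and among the 600 genes after those, down to rank 1000, 252 rose and 74 fell. The rising share was therefore also high below the members, and it was not tested whether the members differ from those genes. The median fitted log2 fold change was 0.85 over the members, 0.36 over those 200 as well as over those 600 genes, and -0.01 over all genes tested. The groups did not overlap in scaled counts for 155 members, 77.5%, where 45.3% of all genes tested were separated so. Scaled by library size alone, 96 members rose and 44 fell, so that 68.6% of the called members were higher at 800 ppm, against 78.7% with TMM. Over all genes this scaling gave 9.62% rising and 24.7% falling and moved the median to -0.28, so the 22.0% of members that fell under it lay near the share over all genes.

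How the members were selected bears on these counts. A gene with a high level at either concentration can enter through the mean, and of the 200 genes most abundant at 800 ppm alone 138 rose and 10 fell. Of the 200 most abundant at 400 ppm alone, 74 rose and 43 fell, and 163 of these were members. At the lower limit of the selection, the last 5 members averaged 490, 490, 488, 485 and 482 TPM, and the next 5 genes averaged 479, 476, 476, 472 and 472 TPM. The number of falling members was 15 once replicate 1 at 800 ppm was dropped, 18 without replicate 3 at 800 ppm and likewise 18 without replicate 3 at 400 ppm. The number of rising members stayed between 88 and 107. Of the rising members 85, and of the falling ones 15, were called the same way in all 6 such fits.

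Many of the called members changed at least 2-fold. A fitted change of at least 2-fold was found in 77 of the rising and 19 of the falling members, and one of at least 4-fold in 7 and 4. Changes of these sizes were not counted over all genes tested, so the counts do not set the members apart. The upper quartile of the fitted log2 fold change was 1.31 over the members and 0.47 over all genes tested. The lower quartile was -0.24 over the members and -0.39 over all genes tested. The largest rise among called members without overlap belonged to TRINITY_DN4071_c0_g1, at rank 90, whose main contig of 1433 bases held 99.1% of its TPM. It had 1518, 1477 and 1548 TPM at 800 ppm and 382, 169 and 391 TPM at 400 ppm. The 800 ppm libraries were close to each other and all above the 400 ppm libraries. The fitted rise was 2.62 on the log2 scale, with a standard error of 0.31 and an adjusted p of 0.00294 by edgeR. TRINITY_DN3532_c0_g1, a single contig of 2385 bases at rank 66, had 1740, 2351 and 2160 TPM at 800 ppm and 418, 458 and 787 TPM at 400 ppm. Its groups were also far apart, and it rose by 2.27 on the log2 scale with a standard error of 0.29 and an adjusted p of 0.00368 by edgeR. Both genes passed whichever library was left out. The next rises, at ranks 100, 135 and 60, had log2 fold changes of 2.16, 2.08 and 2.08.

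Falling members were on median less even between replicates than rising ones. TRINITY_DN4110_c0_g1, at rank 166 with a longest contig of 2692 bases, had 34.2, 136 and 54.8 TPM at 800 ppm and 392, 879 and 1865 TPM at 400 ppm. The groups did not overlap, but the 400 ppm libraries ranged widely. Its fitted change was -3.44 on the log2 scale, with a standard error of 0.75 and an adjusted p of 0.0194 by edgeR. The call was lost once replicate 1 or 3 at 800 ppm was dropped (adjusted p = 0.0624 or 0.0636) and once replicate 3 at 400 ppm was dropped (0.0505). TRINITY_DN23_c0_g1, at rank 131 with 5 contigs, had 133, 288 and 117 TPM at 800 ppm and 767, 1245 and 1585 TPM at 400 ppm. All 800 ppm libraries lay below those at 400 ppm, and it fell by 2.41 on the log2 scale with a standard error of 0.44 and an adjusted p of 0.0109 by edgeR. This call held whichever library was left out. The next falls, at ranks 136, 44 and 62, had log2 fold changes of -2.17, -2.05 and -1.71. Of these only the rank 136 gene lost its call in such a fit, at an adjusted p of 0.0518 once replicate 1 at 800 ppm was dropped. The median coefficient of variation between replicates was 14.0% in the falling, 10.2% in the rising and 17.1% in the uncalled members, on TPM. The call itself depends on the spread between replicates, so these medians are a description only.

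Contig lengths of the members covered much of the range of the assembly. Their longest contigs ran from 319 to 8002 bases with a median of 1585, where the median over all genes was 1448 and over the genes tested 1848. Short members, with a longest contig under 1000 bases, numbered 43, and long members 157. Short genes were thus 21.5% of the members, 34.2% of all genes and 14.0% of the genes tested. Members were more often split into several contigs. Only 35.5% of members had 1 contig, against 67.1% of all genes and 57.1% of the genes tested, and at most 13 contigs were joined in a member. Among short members 31 of 43 had 1 contig, and among long members 40 of 157. In 17 long members the most abundant contig was itself under 1000 bases, among them ranks 1, 2, 4, 5, 7 and 8. Selection by TPM, which divides by length, also bears on the short members, since of the 200 genes with the most reads 15 were short and 148 were members.

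Short members gained little share. They held 6.67%, 7.44% and 7.10% of TPM in the 800 ppm libraries and 5.57%, 7.09% and 6.49% in the 400 ppm libraries. Replicate 2 of the 400 ppm group lay above replicate 1 of the 800 ppm group, so the groups overlapped. Long members held 30.6%, 34.7% and 33.9% at 800 ppm and 25.4%, 27.2% and 24.7% at 400 ppm, without overlap. Both classes follow the longest contig, and shares by the length of the most abundant contig were not analysed. The mean shares of the short members were 7.07% ± 0.39 at 800 ppm and 6.38% ± 0.77 at 400 ppm, and those of the long members 33.1% ± 2.19 at 800 ppm and 25.8% ± 1.28 at 400 ppm (SD, n = 3 each). The ratio of 800 over 400 ppm was 1.11 for short and 1.28 for long members. On estimated reads it was 1.16 for short members, whose groups then did not overlap, and 1.36 for long members. The estimated fragment length bears on the TPM of short contigs most, and the gap between contig length and effective length was 213, 223 and 209 bases in the 800 ppm libraries and 207, 213 and 210 bases in the 400 ppm libraries. Its part in the result on TPM was not tested. Counts fitted with effective length offsets gave 18 rising and 7 falling short members, the numbers without them.

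In the test, 18 of 43 short members rose and 7 fell, and 89 of 157 long members rose and 22 fell. Over all short genes tested 13.0% rose and 6.25% fell, and over all long genes 15.1% rose and 10.6% fell. The shares that rose were 41.9% of short and 56.7% of long members. The shares that fell were 16.3% of short and 14.0% of long members. The median fitted log2 fold change was 0.53 for short and 0.90 for long members, beside 0.01 and -0.01 over all short and all long genes. The difference between short and long members was not tested, because genes are not replicates of a CO2 concentration. The order of the medians did not hold under each selection. Members taken from the 800 ppm libraries alone had medians of 0.89 for short and 1.10 for long genes, those from the 400 ppm libraries alone 0.31 and 0.06, and those with the most reads 0.79 and 0.77. Across the members, the correlation of log2 fold change with the log2 of the longest contig was 0.12 (Pearson's r, 200 genes sharing the same libraries), and over the genes tested it was -0.04.

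**Figure D4:**
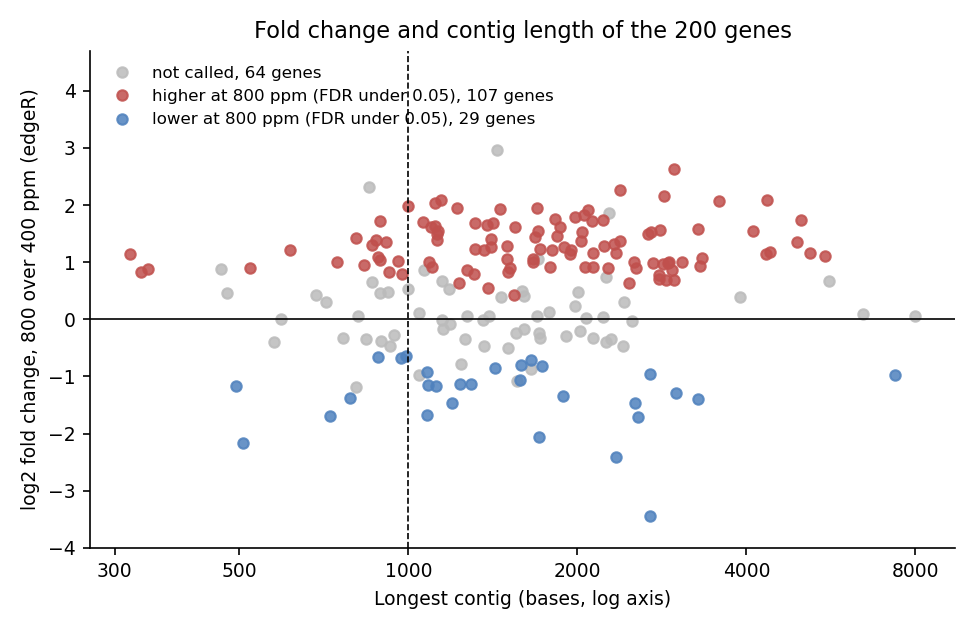
Fitted log2 fold change of 800 over 400 ppm against the longest contig (log axis, bases) for the 200 members, coloured by the call, with a dashed line at 1000 bases. The 107 rising members spread over nearly the whole range of lengths, and both the 29 falling and the 64 uncalled members include short and long genes.

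The length classes parted in the lower ranks of the members. At ranks 1 to 100, 12 of 22 short members rose and 1 fell, with a median log2 fold change of 0.83, and 48 of 78 long members rose and 9 fell, with a median of 0.97. At ranks 101 to 200, 6 of 21 short members rose and 6 fell, with a median of -0.33, while 41 of 79 long members rose and 13 fell, with a median of 0.74. The negative median of these 21 short genes rested on 1 library, since it was 0.01 once replicate 2 at 800 ppm was dropped, and with replicate 1 dropped instead 2 of them fell. Below the members the classes were nearer each other. Among the 200 genes next in abundance the medians were 0.35 for short and 0.37 for long genes, and 15 of 46 short and 66 of 154 long genes rose. Within the members, those with longest contigs of 3000 bases or more had the highest median of the length classes compared, 1.11, with 13 of 19 rising, while among all genes of that length 386 of 3494 rose and the median was -0.11.

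**Figure D5:**
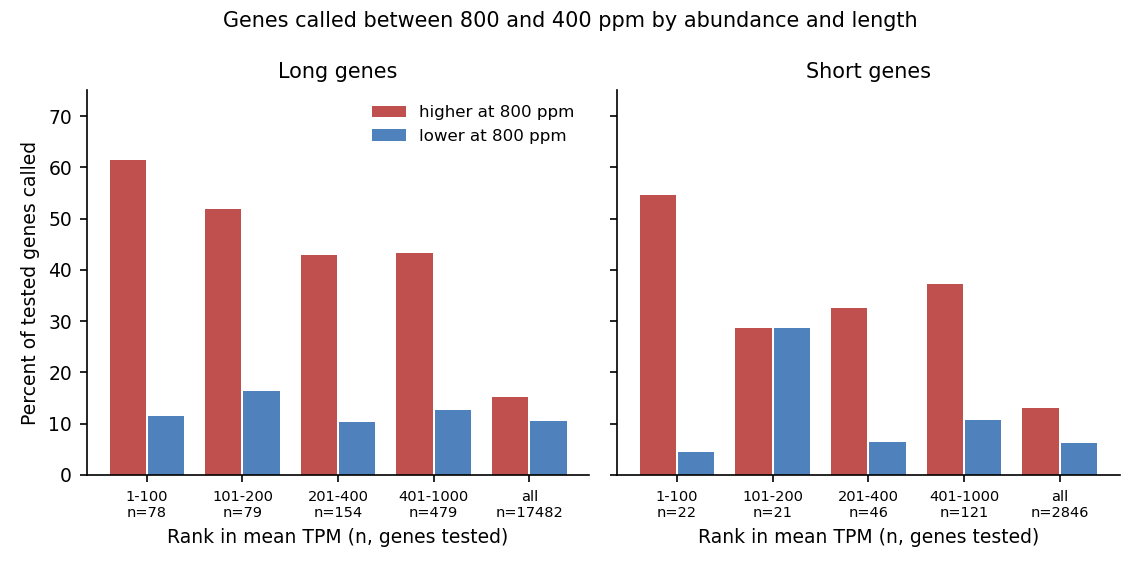
Percent of tested genes called higher or lower at 800 ppm (vertical axis), by rank in mean TPM, for long genes (left panel) and short genes (right panel), with the number of genes under each pair of bars. Short members at ranks 101 to 200 rose and fell equally often, 6 of 21 each, while 41 of 79 long members at these ranks rose.

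The most abundant short members differed among themselves. The rank 10 gene, a single contig of 464 bases, had 6080, 10154 and 7057 TPM at 800 ppm and 2911, 7113 and 5618 TPM at 400 ppm. The groups overlapped and the adjusted p by edgeR was 0.124, or 0.0330 with the replicate number as a block. Its replicates stood in the same order in both groups. The labels do not say that equal replicate numbers pair the libraries, so values with this block only show how a call moves with the setting. Over the members the block gave 103 rises and 27 falls, fewer than without it. The rank 13 gene, with 5 contigs of up to 806 bases, had 1582, 3246 and 2943 TPM at 800 ppm and 4046, 10781 and 6433 TPM at 400 ppm. Its groups did not overlap, but at -1.18 on the log2 scale, with a standard error of 0.41, it missed the threshold (adjusted p = 0.0751). It passed once replicate 1 at 400 ppm was dropped, at an adjusted p of 0.0455, and also with the replicate number as a block (0.0204), by DESeq2 (0.0106) and scaled by library size alone (0.0255). The rank 16 gene, of 475 bases, overlapped between the groups. In contrast, the rank 15 gene, of 334 bases, had 4922, 5732 and 5546 TPM at 800 ppm and 3649, 4194 and 3385 TPM at 400 ppm. It rose by 0.83 on the log2 scale, with a standard error of 0.15 and an adjusted p of 0.0112 by edgeR. The rank 23 gene, of 522 bases, likewise rose, by 0.90 with an adjusted p of 0.0102, and each 800 ppm library of either gene lay above each 400 ppm library.

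The spread between replicates differed widely among members. The median coefficient of variation within groups was 12.6% over the members and 16.9% over the tested genes with a mean of at least 1 TPM. It was under 10% in 64 members and over 50% in 7. The steadiest was the rank 158 gene, a contig of 2908 bases, at 712, 718 and 703 TPM at 800 ppm and 459, 447 and 450 TPM at 400 ppm. Its rise was 1.0 on the log2 scale, with a standard error of 0.12 and an adjusted p of 0.00293 by edgeR. The least steady was the rank 198 gene, at 1021, 151 and 1339 TPM at 800 ppm and 125, 30.4 and 262 TPM at 400 ppm. It had the largest fitted log2 fold change of the members, 2.96, and was not called, with a standard error of 0.97 and an adjusted p of 0.0659 by edgeR. Once replicate 2 at 800 ppm was dropped it passed, at an adjusted p of 0.0279, as it did with the replicate block (0.0129) and by DESeq2 (0.0271). That block uses replicate numbers, which the labels do not give as pairs, and the replicates of this gene stood in the same order in both groups. The rank 189 gene had 1000, 548 and 671 TPM at 800 ppm and 191, 0.54 and 590 TPM at 400 ppm. In replicate 2 of the 400 ppm group that was 16 estimated reads, the lowest count of any member in any library, and the gene was not called (adjusted p = 0.399).

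Membership varied with the library. Each library placed 159 to 167 of the 200 members among its own top 200, and 107 members were in the top 200 of all 6 libraries. In the top 200 of every 800 ppm library and of no 400 ppm library were 23 members, and the reverse held for 19. Over the 6 libraries, 334 genes reached the top 200 at least once.

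Several members belong to the same assembly component, a cluster of reads that Trinity divides into genes, and may share sequence. In 11 components 2 members were found. In 5 of these pairs both members rose, in 2 both fell, in 0 the calls were opposite, and in 9 the fitted changes had the same sign. Of all 200 members 142 had a positive fitted change, so a shared sign is common among them. The pairs were not compared with other pairs of members. The genes at ranks 62 and 95 fell by 1.71 and 0.93 on the log2 scale, those at ranks 131 and 190 by 2.41 and 1.47. Reads shared by similar contigs can be divided between such genes, so the members of a pair are not independent.

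The test was also made for single contigs. Of the 490 contigs of members that could be tested, 187 rose, 42 fell and 261 were not called, where 9.36% of all 32380 contigs tested rose and 5.22% fell. In 4 members contigs were called in both directions. In the rank 11 gene, a contig of 1963 bases made up 59.0%, 50.1% and 53.7% of the gene's TPM at 800 ppm and 87.7%, 83.7% and 85.7% at 400 ppm. A contig of 2292 bases in the same gene made up 37.2%, 46.2% and 43.0% at 800 ppm and 9.41%, 13.0% and 12.0% at 400 ppm. In the rank 104 gene a contig of 1459 bases made up 64.5%, 63.3% and 69.4% at 800 ppm and 21.6%, 36.4% and 18.9% at 400 ppm, with a contig of 1349 bases as its counterpart. No library of one group overlapped the other in these percentages. The estimation divides reads between similar contigs, and its part in these exchanges was not tested.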

How the data were processed

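Leaf RNA was sequenced as 3 paired-end libraries per CO2 concentration. The authors assembled the merged reads with Trinity, kept contigs with long open reading frames, and clustered away redundant ones by CD-hit. Expression was then estimated by a script of the Trinity package. The sources used here do not name its aligner. The deposited values used were the estimated count per contig (not normalized), TPM, the percent of a gene's TPM held by each contig, and lengths. The deposited TPM chose the members. The members and lists were chosen with earlier results of these data known.

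Estimated counts were summed per gene, rounded and filtered with filterByExpr (min.count 10, min.total.count 15). The 20328 genes left entered 1 fit in edgeR 4.0.16, under R 4.3.3 (quasi-likelihood test, TMM, Benjamini-Hochberg over all genes, FDR 0.05). Standard errors are those implied by the F statistic. Contigs were tested likewise. The biological coefficient of variation was 27.4%. The script was tested on simulated data. Alternatives were other factors, filters, DESeq2 1.42.0, a replicate block, offsets for length, other selections and each library left out.

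Identifiers were given for the 2 rises and 2 falls with the largest fitted change among called members without overlap. Others were named by rank: the 10 most abundant, the 5 most abundant short and long, the 5 genes on each side of the limit, the 3 most and least variable, and the next 3 rises and falls. Named lists of photosynthesis and other genes were not used, since no names are paired, and no sequence was printed. With 3 libraries per group an exact permutation test of 1 value cannot give a p below 0.1, so none was run. Figures were drawn with matplotlib 3.10.9.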

Additional observations from a re-analysis of the deposited data

How the results depend on the processing

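The rising members numbered 107 and the falling ones 29. Under library size only, 1955 genes rose and 5023 fell over all genes (3013 and 2025 with TMM), 44 members and 12 short members fell, and the medians were 0.27 for short and 0.63 for long members. This scaling does not set the bulk of genes near 0. The main contig in place of the gene sum gave a short median of 0.61. Members taken from the 800 ppm libraries gave 10 falls. With 100 members 60 rose and 10 fell, with 400 members 188 and 48. A length limit of 800 bases left 6 rises, 4 falls and a median of 0.42 among short members, and one of 1200 bases 28 rises and 12 falls. The difference in share of TPM, 8.01 points, was 10.7 and 5.18 with members from the 800 and 400 ppm libraries. It was 1.88 without the 10 members that added most and 2.98 without the 10 most abundant, both chosen after seeing the data. Each library left out gave 1797 to 2808 rises and 693 to 2071 falls over all genes, 15 to 29 falling members, 2 to 7 falling short and 13 to 24 falling long members, and short medians of 0.50 to 0.78. These fits have fewer samples. The cause of the other shifts was not tested. No called value changed sign, and no member had opposite calls between the fit as reported and DESeq2, library size only, the replicate block, the length trend removed or a library left out.

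The labels do not say whether equal replicate numbers pair the libraries. The correlations of deviations between libraries of the same number were 0.20, 0.02 and -0.14, which cannot settle it. With the replicate block 103 members rose and 27 fell, and 2403 and 1354 of all genes. The lowest count of a member in a library was 16 reads, and counting error was not set against the spread between replicates.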
